A study of Mus musculus with 6 samples.

Results

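Genes that move, store and bind zinc, iron and copper were followed in the uterine epithelium of early mouse pregnancy. They were chosen by name: every measured gene of the zinc transporter families SLC30 and SLC39, the metallothioneins Mt1, Mt2 and Mt3, and a set of iron and copper genes. Of 18193 genes with a probe set that carries a single gene symbol, 37 were members: 10 SLC30 genes, 14 SLC39 genes, 3 metallothioneins, 7 iron genes and 3 copper genes. Trf (transferrin) and Ftl1 (ferritin light chain) were on the list, but their probe sets carry several symbols, so they were not analysed here. The choice of gene names uses no measured value, though the rule was written with earlier results of these data known. The probe set read for each gene was chosen by its mean signal over all arrays.

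The arrays were 1-colour Affymetrix 3′ expression arrays, 2 for each of 3 groups. Wild-type (WT) mice were taken on day 1 of pregnancy, counted from the day of the vaginal plug (samples 302 and 303), and on day 4 (samples 277 and 284). The third group was taken on day 4 and carried the Sox17GFP/+ genotype, called Sox17-heterozygous mutant in the labels, with a normal Sox17 copy beside the GFP allele (samples 253 and 281). All 6 samples were from pregnant females, and the epithelium was freed from uterine pieces with pancreatin and dispase. The labels name no Cre or tissue-limited promoter, so the allele was not described as limited to the epithelium, and strain and age are not given in the sources used here. Nothing states that the samples came from separate animals, so the p-values measure only the spread between these samples, which may be technical.

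Zinc reaches the cytosol through SLC39 (ZIP) proteins and leaves it, for vesicles or the outside, through SLC30 (ZnT) proteins, while metallothioneins bind the free metal. Iron enters cells on transferrin through the transferrin receptor (Tfrc), crosses the endosome membrane through DMT1 (Slc11a2), is stored in ferritin (Fth1, Ftl1) and leaves through ferroportin (Slc40a1), helped by the oxidase ceruloplasmin (Cp). Copper enters through CTR1 (Slc31a1) and is loaded onto enzymes or exported by the pumps ATP7A and ATP7B. The zinc sensor MTF1 drives metallothionein genes and the zinc exporter Slc30a1, and iron regulatory proteins set Tfrc and ferritin output by binding their mRNAs. Estrogen dominates the mouse uterus just after mating and progesterone by day 4, when the epithelium becomes ready for the embryo.

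The values are probe set signals on a linear scale, and a change is a difference of log2(signal + 1). Errors after ± are limma's standard errors under its default prior, with 2 arrays in each group. Adjusted p-values are limma's, corrected by Benjamini-Hochberg over all genes and called under 0.05. Besides limma's default prior, a fit whose prior follows signal strength (the intensity-trend fit) was run, and both are given where they differ. Every gene was represented by its brightest probe set. No detection calls were used, so signals under 50 are described as dim.

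Epithelial markers were high on every array: Krt8 had signals from 25455 to 29696, and the sum of 8 markers ranged from 132670 to 148360. Single markers in that sum moved: Krt7 fell by 2.33 ± 0.20 with the day (adjusted p = 0.00911) and Cldn3 rose by 1.39 ± 0.21 (adjusted p = 0.0254), and in the intensity-trend fit Epcam and Cldn4 were lower on day 4, and Krt7 and Cldn4 higher in heterozygous than in WT day 4 epithelium. Sox17 itself had signals of 34794 and 35060 in WT and 30189 and 28810 in heterozygous epithelium on day 4, a ratio of 0.845 (adjusted p = 0.586). Which part of the transcript its probe set reads, relative to the GFP allele, is not known here. The array of WT day 4 sample 277 stood apart, where the median probe set read 137.6 and elsewhere 66.17 to 77.98, and where 27% of probe sets were under 50 against 41.6% to 44.6%. The median change over all genes was 0.30 from day 1 to day 4 and -0.20 between the day 4 groups, and it shrank to 0.07 and -0.01 after quantile normalization. The WT day 4 arrays enter both of those comparisons, so the values of the comparisons are not independent of each other. Between 4 and 8 of the 37 had a signal under 50, depending on the array.

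**Figure D1:**
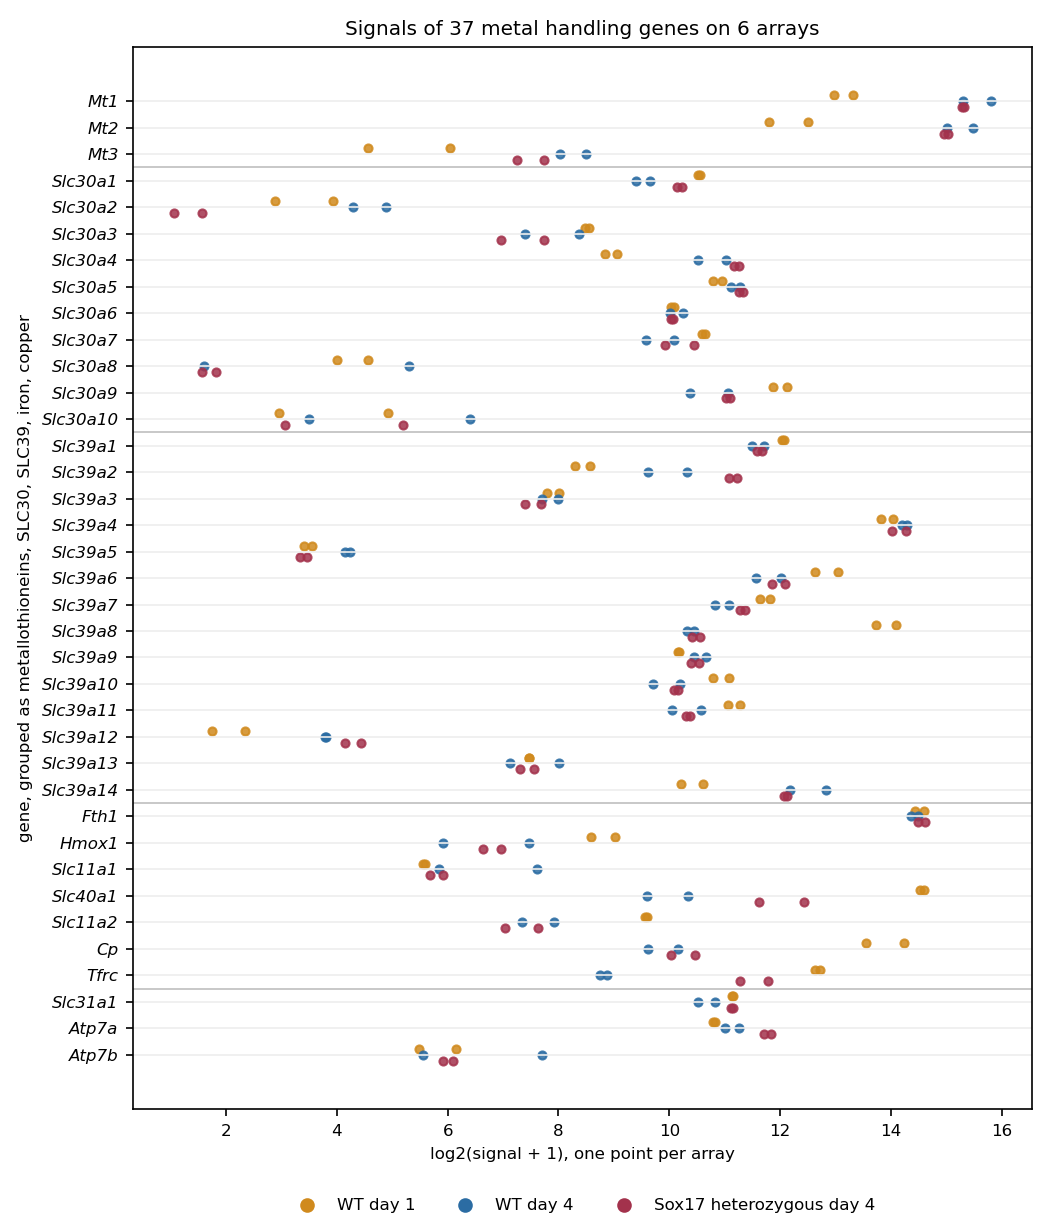
Signal of each of the 37 metal genes on the 6 arrays, as log2(signal + 1) on the horizontal axis, with 1 point per array and the groups in different colours (WT day 1, WT day 4, Sox17 heterozygous day 4). Slc39a8, Slc40a1, Cp and Tfrc lie far to the right on day 1 arrays, and Mt1, Mt2, Slc30a4 and Slc39a14 on day 4 arrays of both genotypes.

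Between day 1 and day 4 in WT epithelium the metal genes moved in both directions. All 3 metallothioneins, the zinc transporters Slc30a4, Slc39a2 and Slc39a14 and the dim Slc39a12 rose. The iron genes Slc40a1, Cp, Tfrc and Slc11a2 and the zinc transporters Slc39a8 and Slc30a1 fell. In the default fit 7 of 37 members were higher (18.9%), against 7.58% of all genes, and 6 were lower (16.2%), against 5.73% of all genes. With the intensity trend 6 were higher and 15 lower, against 14.0% and 10.8% of all genes. After quantile normalization the default split was 6 higher and 8 lower, and after centring on the median 4 and 6.

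No member passed in the default fit without WT day 1 sample 302 or without 303, where 0 of 18193 genes passed in either direction. The count of higher members was also 0 without heterozygous sample 253 or 281, which serve here only to estimate the spread, and 4 members were then lower. Without WT day 4 sample 277, 4 were higher and 6 lower. In the intensity-trend fit, leaving out any array gave 6 to 8 higher and 10 to 14 lower members.

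Mt1 and Mt2 encode small cysteine-rich proteins that hold zinc and copper. Mt1 read 10162 and 8029 on the day 1 arrays, 57465 and 40492 on WT day 4, and 41026 and 40060 in heterozygous epithelium. Every day 4 array lay far above both day 1 arrays, and the day 4 genotypes overlapped. The day change was 2.42 ± 0.27 (adjusted p = 0.0145), a 5.39-fold rise of the mean signal, while the genotype change was -0.25 ± 0.27 (adjusted p = 0.693). A second Mt1 probe set, reading 611 and 950 on the day 1 arrays and 9121 and 9667 on WT day 4, gave a larger day change of 3.62 ± 0.30. The brighter one belongs to a class of Affymetrix probe sets that can read several transcripts.

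Signals of Mt2 were 5795 and 3548 on day 1, 46013 and 33252 on WT day 4, and 33642 and 31805 in heterozygous epithelium. Here too the day 4 arrays of both genotypes overlapped and none came near day 1. Mt2 rose by 3.11 ± 0.34 (adjusted p = 0.0134), an 8.48-fold rise, and its genotype change was -0.26 ± 0.34 (adjusted p = 0.741). Mt3, a metallothionein best known from the brain, had 22.6 and 64.6 on day 1, 361 and 260 on WT day 4, and 151 and 212 in heterozygous epithelium. It rose by 2.97 ± 0.58 with the day (adjusted p = 0.0435), a call lost when any single array was left out of the default fit. In heterozygous epithelium both Mt3 arrays were below both WT day 4 arrays, by -0.77 ± 0.58 (adjusted p = 0.575).

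The promoters of Mt1, Mt2 and Slc30a1 are shown because MTF1, the zinc sensor, is known to act through a short core in them and the 3 genes did not move together. The windows are the 250 bases before the RefSeq start (assembly GRCm38.p6), read along the gene's strand, which is the + strand for all 3. Capitals mark the metal response element core, searched as TGCACNC or TGCGCNC on both strands.

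Mt1, chr8:94178839-94179088: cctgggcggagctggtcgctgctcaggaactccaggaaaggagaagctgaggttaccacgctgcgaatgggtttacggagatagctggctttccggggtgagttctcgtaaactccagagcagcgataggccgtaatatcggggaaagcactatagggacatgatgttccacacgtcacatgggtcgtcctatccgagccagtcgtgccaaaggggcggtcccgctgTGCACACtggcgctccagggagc

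Mt2, chr8:94172368-94172617: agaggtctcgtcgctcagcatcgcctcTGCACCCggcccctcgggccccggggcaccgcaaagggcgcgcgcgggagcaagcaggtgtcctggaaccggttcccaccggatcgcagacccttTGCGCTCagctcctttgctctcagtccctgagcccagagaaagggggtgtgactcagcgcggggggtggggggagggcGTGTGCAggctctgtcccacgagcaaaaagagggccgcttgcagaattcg

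Slc30a1, chr1:191906531-191906780: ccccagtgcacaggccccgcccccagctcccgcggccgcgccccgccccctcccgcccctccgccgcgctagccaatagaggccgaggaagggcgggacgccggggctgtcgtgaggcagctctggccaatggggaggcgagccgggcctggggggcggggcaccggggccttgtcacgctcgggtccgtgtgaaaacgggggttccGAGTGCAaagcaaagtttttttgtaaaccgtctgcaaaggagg

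The Mt2 window held 3 cores, the Mt1 window 1 core, 23 to 17 bases before the start, and the Slc30a1 window 1 core on the reverse strand, 43 to 37 bases before it. The Mt3 window held 0. A window with at least 3 cores was found in 1.26% of 32851 RefSeq windows of the same length, and at least 1 core in 21.4%. Of the 37 members, 30 had a window, and 15 of these held a core, against 23.8% of 27025 genes. These matches describe letters in the windows only. Each window ends at the annotated start, and bases beyond it were not searched. The counts are therefore not the number of cores in a whole promoter, and they do not rank Mt1 against Mt2.

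Slc30a1 is the plasma membrane zinc exporter. It read 1472 and 1501 on the day 1 arrays, 673 and 808 on WT day 4, and 1124 and 1202 in heterozygous epithelium. The heterozygous arrays lay between the WT groups and overlapped neither. With the day it fell by 1.01 ± 0.20 (adjusted p = 0.0467), opposite to Mt1 and Mt2. In heterozygous against WT day 4 epithelium the change was 0.66 ± 0.20, which passed in neither fit (adjusted p = 0.322, and 0.0643 with the intensity trend). The day call was lost in the default fit when any array was left out or the arrays were centred (adjusted p = 0.166), but it passed in the intensity-trend fit. A second probe set gave -1.54 for the day and 1.07 for the genotype.

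Slc30a4, a zinc transporter of vesicles that is known for loading zinc into milk, went the other way. Its signals were 455 and 529 on day 1, 2093 and 1469 on WT day 4, and 2447 and 2313 in heterozygous epithelium. Both genotypes were well above day 1, and both heterozygous arrays above both WT day 4 arrays. It rose by 1.84 ± 0.26 (adjusted p = 0.0220), a 3.62-fold rise, and its genotype change was 0.44 ± 0.26 (adjusted p = 0.500).

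Of the other SLC30 genes, Slc30a9 and Slc30a7 fell in the intensity-trend fit only. Slc30a9 read 4463 and 3768 on the day 1 arrays, 1320 and 2127 on WT day 4, and 2082 and 2175 in heterozygous epithelium. Both day 4 groups lay below day 1 and overlapped each other. Its day change was -1.29 ± 0.31 (adjusted p = 0.0671, and 0.00101 with the trend). Slc30a7, which moves zinc into the Golgi, read 1598 and 1542 on the day 1 arrays, 1088 and 767 on WT day 4, and 1394 and 972 in heterozygous epithelium, with a day change of -0.78 ± 0.30 (adjusted p = 0.1805, and 0.0244 with the trend). That call was lost without WT day 1 sample 302 or 303 and without WT day 4 sample 284 (0.0753 to 0.113).

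Slc30a5 and Slc30a6, which work as a pair in the Golgi, ranged from 1765 to 2578 and from 1032 to 1215 and passed in no comparison. Slc30a3, the transporter of synaptic vesicles, ranged from 124 to 373. Slc30a2 and Slc30a8 were dim on every array, and Slc30a10 on every array but WT day 4 sample 277, where it read 83.5. Slc30a2 had 14.3 and 6.42 on day 1, 28.5 and 18.6 on WT day 4, and 1.08 and 1.96 in heterozygous epithelium. Its genotype change of -3.27 ± 0.47 (adjusted p = 0.169, and 0.130 with the trend) was the largest of any member but lay wholly among dim signals.

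Slc39a8 (ZIP8), an importer of zinc, iron and manganese, had the largest fall among the zinc transporters. Its signals were 17471 and 13668 on day 1, 1388 and 1284 on WT day 4, and 1504 and 1358 in heterozygous epithelium. The day 4 arrays of both genotypes overlapped and were far under day 1. Slc39a8 fell by 3.53 ± 0.22 with the day (adjusted p = 0.00717), a mean signal 11.7 times lower, and its genotype change was 0.10 ± 0.22 (adjusted p = 0.853). A second probe set fell by 4.77. With the intensity trend the day change passed whichever array was left out (largest adjusted p = 3.26e-05).

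Slc39a14 (ZIP14), the closest relative of Slc39a8 and likewise a carrier of zinc, iron and manganese, rose. Signals were 1185 and 1559 on day 1, 4642 and 7278 on WT day 4, and 4490 and 4283 in heterozygous epithelium. All 4 day 4 arrays were above day 1, and both heterozygous arrays were under both WT arrays, by little for sample 277 and by more for 284. The day change was 2.10 ± 0.31 (adjusted p = 0.0247), a 4.34-fold rise, and the genotype change -0.41 ± 0.31 (adjusted p = 0.585). It lost the default call after centring (adjusted p = 0.0899), and its 3 other probe sets gave smaller day changes of 0.75, 1.28 and 1.51.

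Slc39a2 (ZIP2), a zinc importer of the plasma membrane, rose with the day and was higher still in heterozygous epithelium. It read 380 and 314 on the day 1 arrays, 1276 and 788 on WT day 4, and 2158 and 2389 in heterozygous epithelium, so no group overlapped another. The day change was 1.53 ± 0.31 (adjusted p = 0.0484, and 0.0808 after centring). The genotype change of 1.18 ± 0.31, a 2.20-fold difference, missed the default threshold (adjusted p = 0.278) and passed with the intensity trend (adjusted p = 0.0208). That call was lost after centring (adjusted p = 0.0523), without heterozygous sample 253 (0.160) and without 281 (0.172).

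Slc39a4 (ZIP4), the importer that takes up dietary zinc in the gut, passed in no comparison. It had signals from 14484 to 20065, with a day change of 0.32 ± 0.21 (adjusted p = 0.391) and a genotype change of -0.10 ± 0.21 (adjusted p = 0.844). Slc39a12 passed in the default fit (1.74 ± 0.29, adjusted p = 0.0305), reading 4.09 and 2.35 on the day 1 arrays, 12.7 and 12.9 on WT day 4 and 20.6 and 16.8 in heterozygous epithelium. All of these were dim, the trend fit gave an adjusted p of 0.269, and a second, dimmer probe set gave 0.22.

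A further 5 SLC39 genes fell from day 1 to day 4 in the intensity-trend fit only. Slc39a6 (8487 and 6372 on day 1, 3045 and 4144 on WT day 4, 3697 and 4383 in heterozygous epithelium) changed by -1.05 ± 0.28. Slc39a10, its partner in zinc uptake at cell division and cell shape changes, changed by -0.98 ± 0.26, with 1779 and 2155 on day 1, 835 and 1173 on WT day 4 and 1135 and 1085 in heterozygous epithelium. Both had heterozygous signals within the range of the WT day 4 pair or just past it.

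Slc39a11 had signals of 2133 and 2485, then 1513 and 1062, and 1321 and 1258 in heterozygous epithelium (-0.86 ± 0.26). Slc39a7, which releases zinc from the endoplasmic reticulum, had 3195 and 3625, then 2159 and 1804, and 2632 and 2481 (-0.79 ± 0.21). Slc39a1 had 4324 and 4203, then 3343 and 2892, and 3076 and 3251 (-0.46 ± 0.19). For these 5 genes the adjusted p of the day change ranged from 0.0858 to 0.213 in the default fit and from 0.00249 to 0.0404 with the trend, and centring ended the trend call of Slc39a1 (0.215) and Slc39a6 (0.0611). The call of Slc39a1 was kept only without WT day 4 sample 277 and lost without each of the other 5 arrays (0.0752 to 0.167), and that of Slc39a11 was lost without WT day 1 sample 303 (0.0507). Slc39a3, Slc39a9, Slc39a13 and the dim Slc39a5 passed in no comparison, with signals of 167 to 258, 1144 to 1610, 139 to 257 and 9.09 to 17.8. Dimmer probe sets of Slc39a3 (0.57) and Slc39a9 (0.86 and 0.64) had the opposite genotype sign, and one of Slc39a9 the opposite day sign (-0.20 against 0.38).

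**Figure D2:**
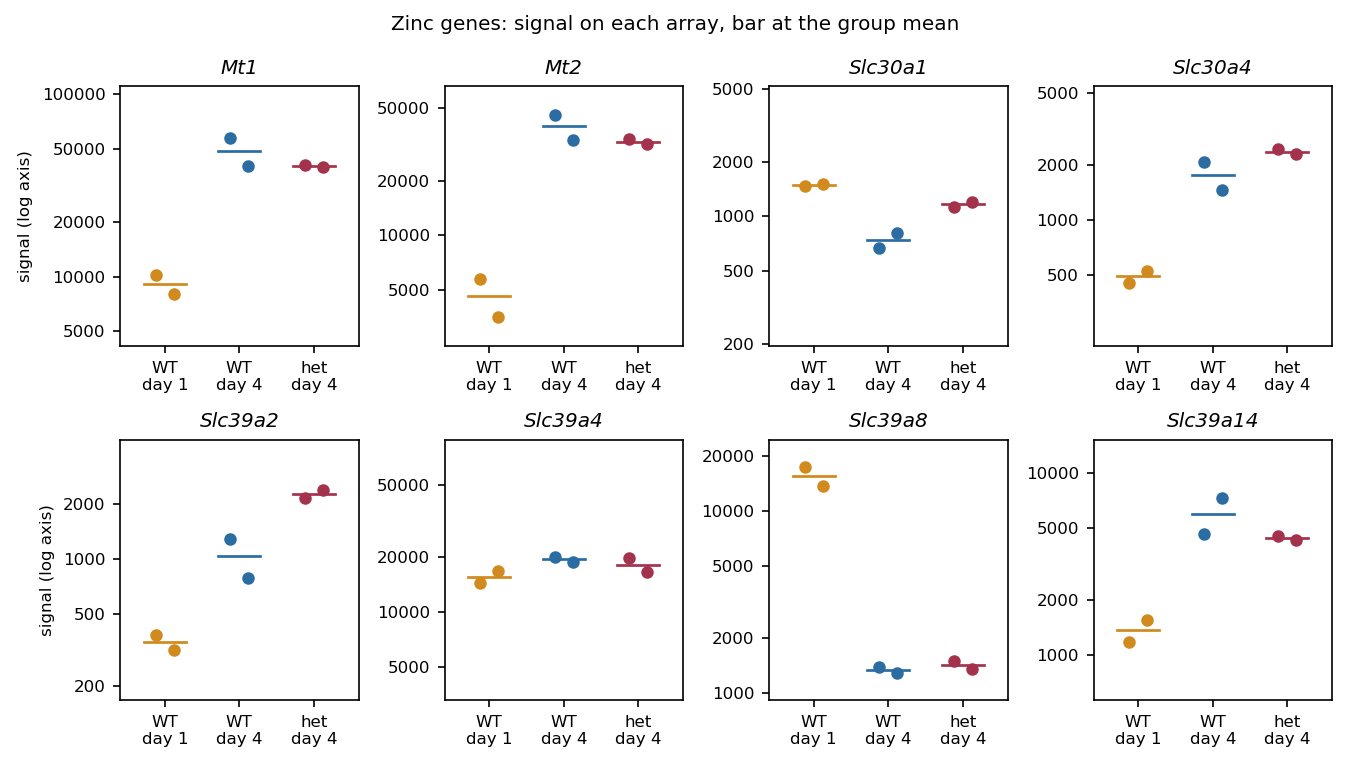
Signal on each array (points, log axis) and group mean (bar) for 8 zinc genes in WT day 1, WT day 4 and heterozygous day 4 epithelium, with the same log span in every panel. Mt1, Mt2, Slc30a4 and Slc39a14 were high on day 4 in both genotypes, Slc39a8 was high on day 1 only, and Slc39a2 was highest in heterozygous epithelium.

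Of the 7 iron genes measured, 0 were higher and 4 lower on day 4 in the default fit, where 5.73% of all genes were lower. With the trend 5 were lower, against 10.8% of all genes, and their median change was -2.12, against 0.30 over all genes. The median stayed between -2.42 and -2.12 under the 2 other scalings and the main one. These genes serve opposite directions of iron flow: uptake (Tfrc, Slc11a2) and export (Slc40a1, Cp) fell together, and storage (Fth1) did not pass.

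Tfrc takes up transferrin-bound iron. Its signals were 6324 and 6749 on day 1, 467 and 431 on WT day 4, and 3513 and 2482 in heterozygous epithelium. WT day 4 was far below the rest, and the heterozygous arrays lay between the WT groups without touching either. From day 1 to day 4 Tfrc fell by 3.86 ± 0.25 (adjusted p = 0.00717), a mean signal 14.6 times lower. Heterozygous epithelium had 6.67 times the WT day 4 mean, a change of 2.72 ± 0.25, which passed with the intensity trend (adjusted p = 1.03e-04) but not in the default fit (adjusted p = 0.151). Against WT day 1 it was lower by -1.15 ± 0.25 (adjusted p = 0.0664, and 9.18e-04 with the trend).

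The trend call on the Tfrc genotype change held without each of the 6 arrays (changes of 2.46 to 2.97, largest adjusted p = 0.00532) and after centring (adjusted p = 0.00127). Its 2 dimmer probe sets gave -4.26 and -2.48 for the day and 2.14 and 0.70 for the genotype. All 3 probe sets thus had the same signs, with the smallest differences in the dimmest.

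Slc40a1, ferroportin, is the known cellular iron exporter. It read 23620 and 24869 on the day 1 arrays, 1292 and 776 on WT day 4 and 5536 and 3148 in heterozygous epithelium. As for Tfrc, the heterozygous arrays fell between the WT groups with no overlap. The day change was -4.60 ± 0.41 (adjusted p = 0.00953), a mean signal 23.5 times lower and the largest change of any member. The genotype change was 2.06 ± 0.41, or 4.20-fold, with an adjusted p of 0.220 in the default fit and 0.00356 with the trend.

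That call on Slc40a1 also held without each array (1.65 to 2.47, largest adjusted p = 0.0276) and after centring (adjusted p = 0.00962). Against WT day 1 the heterozygous arrays were lower by -2.54 ± 0.41 (adjusted p = 0.0362). A second probe set gave -5.43 for the day and 2.10 for the genotype.

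Cp encodes ceruloplasmin, a copper enzyme that oxidises iron as it leaves cells. Signals were 11930 and 19202 on day 1, 1135 and 780 on WT day 4, and 1416 and 1042 in heterozygous epithelium. Both day 1 arrays were far above all others, and the day 4 genotypes overlapped, unlike those of Tfrc and Slc40a1. The day change was -4.01 ± 0.38 (adjusted p = 0.0103) and the genotype change 0.37 ± 0.38 (adjusted p = 0.672). Its 8 probe sets gave day changes from -4.72 to -1.03 and genotype changes from -0.41 to 1.43. Both the size and the sign of the genotype value thus depend on the probe set.

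Slc11a2 (DMT1) carries ferrous iron across the endosome and the plasma membrane. It read 771 and 752 on the day 1 arrays, 242 and 161 on WT day 4, and 131 and 197 in heterozygous epithelium. Day 4 arrays of both genotypes overlapped well under day 1. It fell by 1.94 ± 0.33 (adjusted p = 0.0329), with a genotype change of -0.30 ± 0.33 (adjusted p = 0.700). The day call was lost in the default fit without any 1 array but kept with the trend (largest adjusted p = 0.0189), and 3 dimmer probe sets gave day changes of -1.21, -2.93 and -1.92.

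Hmox1, heme oxygenase, frees iron from heme. Its signals were 520 and 385 on day 1, 176 and 59.1 on WT day 4, and 98.2 and 124 in heterozygous epithelium. Every day 4 array was under day 1, but the WT day 4 arrays differed widely. The day change of -2.12 ± 0.58 passed with the trend only (adjusted p = 0.0921, and 0.0125 with the trend), and that call was lost without WT day 1 sample 302 (0.125) or 303 (0.0503). Fth1, the ferritin heavy chain, had signals from 20975 to 25270 on all arrays and passed in no comparison, with a day change of -0.10 ± 0.20 and a genotype change of 0.14 ± 0.20. Slc11a1, an iron transporter of phagocytes, was near the dim range, at 46.2 to 59.1 on 5 arrays and 194 on WT day 4 sample 277.

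**Figure D3:**
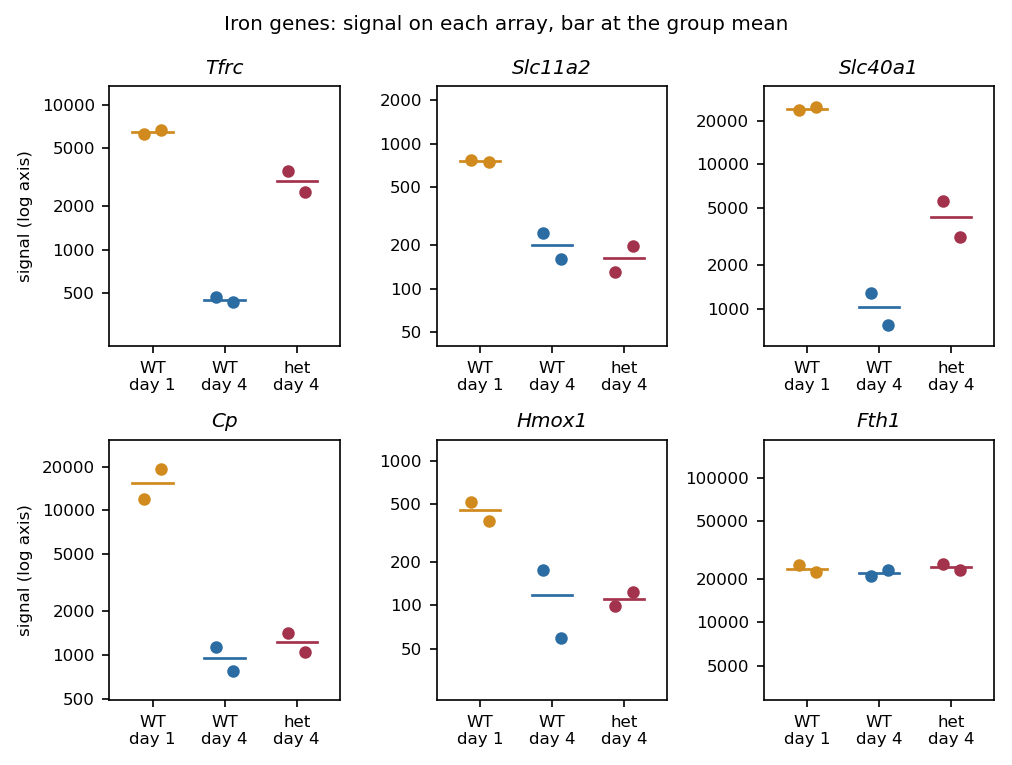
Signal on each array (points, log axis) and group mean (bar) for 6 iron genes, with the same log span in every panel. Tfrc and Slc40a1 in heterozygous epithelium lie between WT day 1 and WT day 4, and Slc11a2, Cp and Hmox1 lie with WT day 4. For Fth1, day 1 signals overlap those of both day 4 groups, and both heterozygous arrays are just above both WT day 4 arrays.

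Markers of other cells were read beside the iron genes, since macrophages and blood cells also carry several of them. Over 10 macrophage markers the summed signal was 21147 to 22602 on day 1, 17108 to 17244 on WT day 4 and 13743 to 14410 in heterozygous epithelium. Most of this sum was Cd14, at 12139 to 15709. Cd68 moved as the iron genes did with the day, from 6401 and 5746 to 224 and 157, and had 308 and 167 in heterozygous epithelium. Lyz2 and C1qa rose, and C1qa, C1qb and C1qc were at most 72.8 on day 1. Csf1r had 139 and 238 on day 1, 619 and 234 on WT day 4 and 194 and 158 in heterozygous epithelium. C1qa had 171 and 84.6 on WT day 4 and 8.61 and 3.68 in heterozygous epithelium. Both heterozygous arrays were under both WT day 4 arrays for C1qa, C1qb, C1qc, Csf1r, Cd14 and Lyz2. For Adgre1, Cd68, Mrc1 and Cd163 the day 4 groups overlapped. Except for Cd14, the higher WT day 4 signal of each macrophage marker was on sample 277, the array with the raised median signal.

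Among 9 stromal markers the sum ranged from 3484 to 8918 on day 1, 1616 to 2782 on WT day 4 and 458 to 853 in heterozygous epithelium. For 4 measured red cell genes it was under 50 on the day 1 and heterozygous arrays and 120 to 269 on WT day 4. The 269 was on sample 277, whose array stood apart, and on sample 284 each of these 4 genes was dim. The 5 ciliated or oviduct markers summed to 1714 to 2717 on day 1, 7860 to 9000 on WT day 4 and 13824 to 25521 in heterozygous epithelium, and they did not move alike. Ovgp1 had 5497 and 7309 on WT day 4 and 20932 and 10977 in heterozygous epithelium, and both heterozygous arrays of Tuba1a were also above WT, while Dnah5 went from 157 and 130 to 53.5 and 56.5. The defining gene Foxj1 was under 50 on every array. Among epithelial markers, Krt7 followed the pattern of Tfrc and Slc40a1, with 10906 and 10869 on day 1, 2063 and 2285 on WT day 4 and 3724 and 4323 in heterozygous epithelium (genotype change 0.89 ± 0.20, adjusted p = 0.240, and 0.00936 with the trend). The part of any of these in the metal gene changes was not tested. In such bulk samples fewer cells of a type and less RNA per cell cannot be told apart.

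No copper transporter passed for the day in the default fit, and Slc31a1 was lower with the trend. Atp7a, the pump that exports copper and loads secreted copper enzymes, read 1773 and 1822 on the day 1 arrays, 2048 and 2435 on WT day 4, and 3355 and 3654 in heterozygous epithelium. The 3 groups did not overlap, with heterozygous epithelium highest. Its day change was 0.31 ± 0.20 (adjusted p = 0.377). The genotype change of 0.65 ± 0.20, or 1.56-fold, passed only with the trend (adjusted p = 0.324, and 0.0433 with the trend), and this call was kept only without WT day 4 sample 284 (0.0257): it was lost without each of the other 5 arrays (0.0540 to 0.328) and after centring (0.361). Against WT day 1 the change was 0.96 ± 0.20 (adjusted p = 0.0617, and 8.65e-04 with the trend).

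Slc31a1 (CTR1), the copper importer, had 2258 and 2286 on day 1, 1462 and 1806 on WT day 4, and 2283 and 2203 in heterozygous epithelium. Both WT day 4 arrays were under the other 4. The day change of -0.48 ± 0.21 passed with the trend only (adjusted p = 0.214, and 0.0434 with the trend), a call lost after centring (0.236) and without any array but WT day 4 sample 284 (0.0956 to 0.149). A second probe set of similar brightness gave a larger day change of -1.68, and the genotype change was 0.46 ± 0.21 (adjusted p = 0.423). Atp7b, the copper pump best known from liver, ranged from 43.6 to 207, with the highest value on WT day 4 sample 277.

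Between heterozygous and WT epithelium on day 4, Tfrc, Slc40a1, Slc39a2 and Atp7a stood higher by limma's intensity-trend fit, and no member stood lower. In limma's default fit 0 of 37 members passed in either direction, as did 0% of all genes higher and 0% lower, and the smallest adjusted p of any gene was 0.125. At an unadjusted p under 0.05 there were 7 members (18.9%), against 13.2% of all genes: those 4 and Slc30a1, higher, and the dim Slc30a2 and Slc39a5, lower. The robust prior gave 0 as well. With the trend 4 members were higher, against 1.93% of all genes, and 0 lower, against 1.59%. For a single gene in groups of 2 and 2, the smallest p of an exact permutation test, two-sided, is 0.333.

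An at least 2-fold difference without overlap was seen for 3 members higher in heterozygous epithelium (Tfrc, Slc40a1 and Slc39a2), against 4.20% of all genes, and for 1 lower (Slc30a2), against 14.0% of all genes. The count of higher members with the trend was 2 after centring, 2 without heterozygous sample 253, 2 without 281 and 7 without WT day 4 sample 284. The median genotype change of the members was 0.02, and that of all genes -0.20. Neither Mt1 nor Mt2 nor Slc39a8, all of which passed for the day, passed in either fit between the day 4 genotypes.

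**Figure D4:**
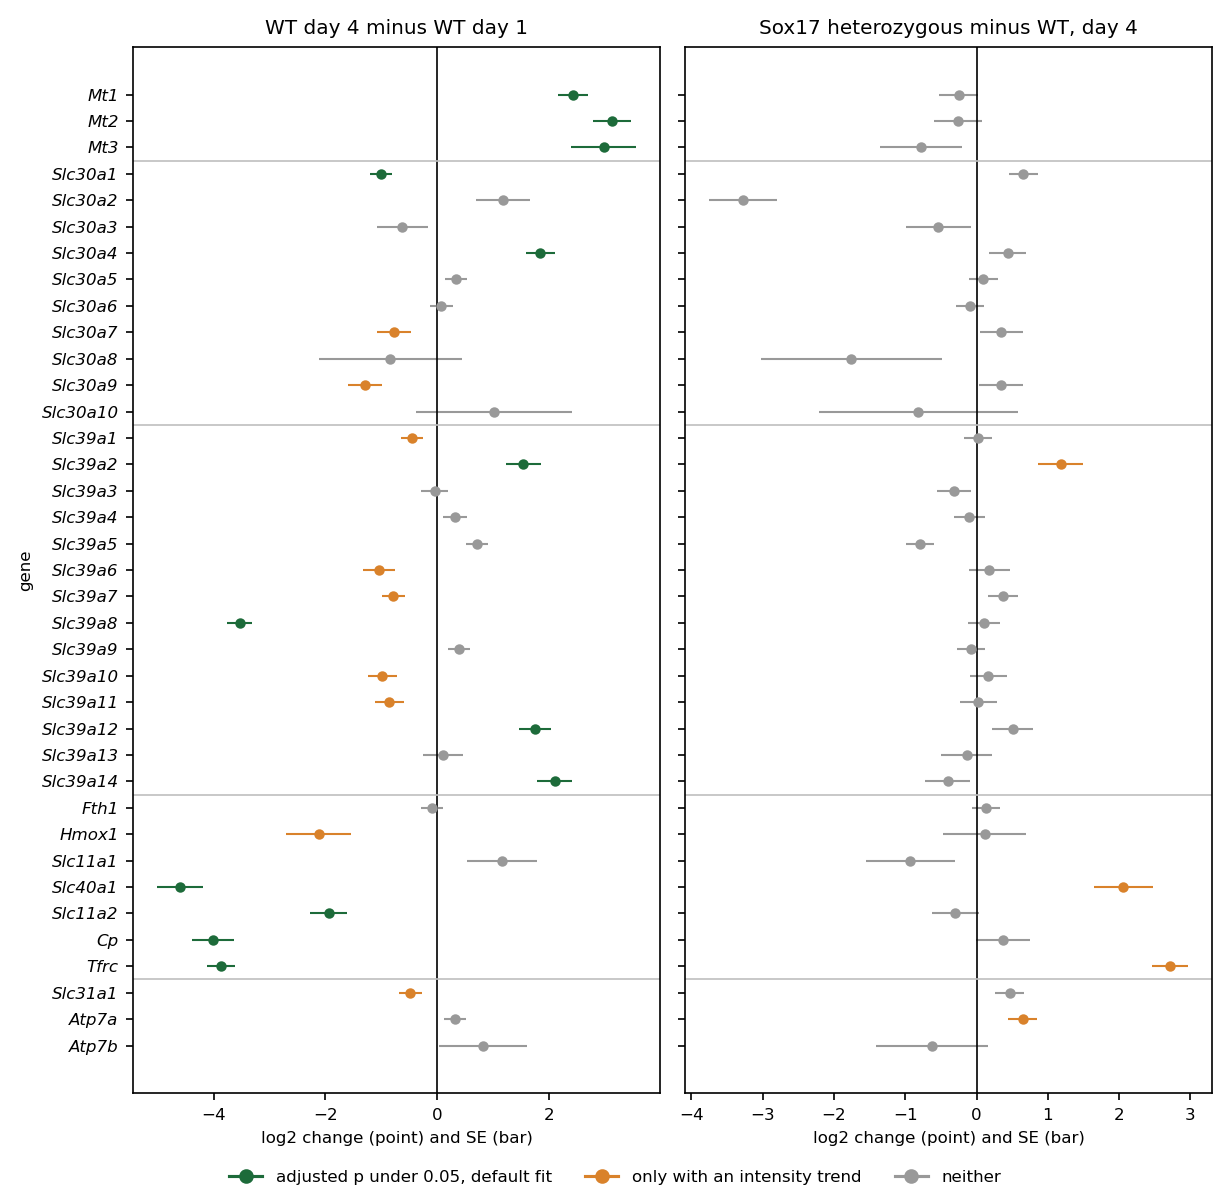
Log2 change (point) and limma standard error (bar) of each member from WT day 1 to WT day 4 (left) and from WT to heterozygous on day 4 (right), coloured by whether the adjusted p was under 0.05 in the default fit, only in the intensity-trend fit, or in neither (Slc39a12 passed in the default fit alone). Slc40a1, Cp and Tfrc have the largest falls with the day, Tfrc and Slc40a1 the largest rises between genotypes, and Slc30a2, at the far left for the genotype, is dim.

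Set against WT day 1, heterozygous day 4 epithelium had 6 members higher in the default fit (Mt1, Mt2, Slc30a4, Slc39a2, Slc39a12 and Slc39a14), against 5.07% of all genes, and 4 lower (Slc39a8, Slc40a1, Cp and Slc11a2), against 4.48%. With the trend 7 were higher and 10 lower, against 11.7% and 9.65% of all genes. The default counts were 0 without either day 1 array or either heterozygous array, while the trend counts were 6 to 8 higher and 5 to 14 lower when an array was left out, the 5 being without heterozygous sample 253. Centring gave 6 lower with the trend.

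The sizes of these changes can be read beside those of WT, with the same day 1 arrays in both. For Mt1 the change was 2.17 ± 0.27 in heterozygous and 2.42 ± 0.27 in WT epithelium, and for Slc39a8 it was -3.43 ± 0.22 and -3.53 ± 0.22. For Slc40a1 the values were -2.54 ± 0.41 and -4.60 ± 0.41, and for Tfrc -1.15 ± 0.25 and -3.86 ± 0.25. The difference between the members of each pair is the genotype change on day 4, whose tests are given above.

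Different probe sets of a gene read different stretches of its transcripts and served as a further check. The 37 members had 71 probe sets, and 19 members had more than 1. In 16 of these 19 all probe sets agreed in the sign of the day change, and in Fth1, Atp7b and Slc39a9 they did not. For the genotype they agreed in 11 and not in 8: Cp, Slc11a2, Fth1, Slc39a3, Slc39a9, Slc39a10, Slc39a12 and Slc39a14.

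**Figure D5:**
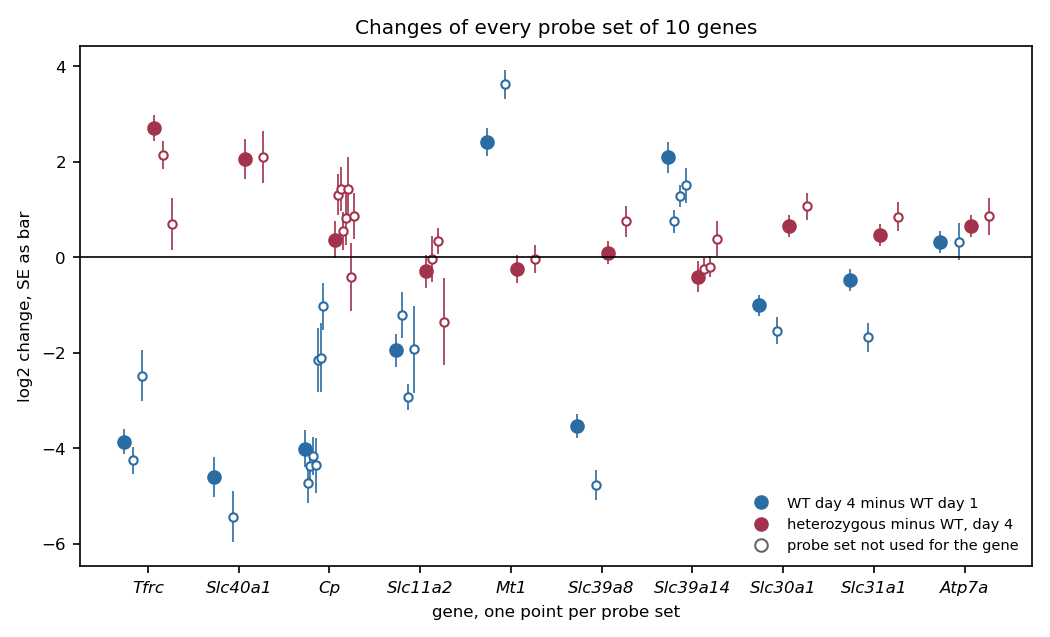
Log2 change (point) and standard error (bar) of every probe set of 10 metal genes, for the day in WT and for the genotype on day 4. Filled points are the brightest probe set, used throughout. Signs for the day agree within every gene shown, while Fth1, Atp7b and Slc39a9, whose day signs differ, are not shown. Genotype signs differ within Cp, Slc11a2 and Slc39a14.

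Of 83 other gene symbols of metal biology listed alongside, with some genes under more than 1 name, 79 were measured. In the default fit 11 were higher (13.9%) and 7 lower (8.86%) on WT day 4 than on day 1, against 7.58% and 5.73% of all genes. With the trend 24 were higher (30.4%) and 13 lower (16.5%), against 14.0% and 10.8%. By group in the default fit, against that same background, heme and iron-sulfur cluster genes had 5 of 25 higher and 0 lower, and copper chaperones and copper enzymes had 4 of 13 higher and 1 lower. Reductases and iron-binding secreted or surface proteins had 2 of 18 higher and 3 lower. Metal sensors and regulators had 0 of 16 higher and 1 lower, and manganese and zinc related genes 0 of 7 and 2. Between the day 4 genotypes 0 passed by default, and with the trend 1 was higher and 3 lower, against 1.93% and 1.59% of all genes. Heterozygous against WT day 1, 9 were higher and 5 lower by default, against 5.07% and 4.48%.

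Changes in single genes were as follows. Scara5, a receptor for ferritin, read 90.9 and 46.9 on the day 1 arrays, 2704 and 2122 on WT day 4, and 451 and 968 in heterozygous epithelium. The heterozygous arrays again lay between the WT groups, here on a gene that was high on WT day 4. It rose by 5.18 ± 0.53 with the day (adjusted p = 0.0121), and its genotype change was -1.86 ± 0.53 (adjusted p = 0.295, and 0.0278 with the trend). Lrp2, megalin, which takes up many metal-binding proteins, went from 24.2 and 20.1 to 13372 and 18257 and had 12090 and 15145 in heterozygous epithelium. Slc46a1, a carrier of heme and folate, had 15.3 and 21.0 on day 1 and 112 to 257 on the 4 arrays of day 4, and rose by 3.65 ± 0.29 (adjusted p = 0.00838).

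Lcn2, which binds iron-laden siderophores, fell with the day. It had 43702 and 47537 on day 1, 991 and 133 on WT day 4, and 2612 and 1135 in heterozygous epithelium, with a day change of -6.97 ± 1.07 (adjusted p = 0.0260) and a genotype change of 2.24 ± 1.07 (adjusted p = 0.438). Ltf, lactoferrin, an iron-binding protein of the estrogen-primed uterus, had 27190 and 11735 in heterozygous epithelium against 8351 and 1406 in WT on day 4, a change of 2.38 ± 0.97 (adjusted p = 0.404, and 0.0780 with the trend). Both heterozygous arrays of each gene were above both WT day 4 arrays. Steap2, a reductase of iron and copper, fell by 4.99 ± 0.36 with the day (adjusted p = 0.00769), from 5426 and 6200 to 243 and 135, and had 389 and 302 in heterozygous epithelium. Outside the naming rule and chosen for their size, its relative Steap1 fell by 6.97 ± 1.26 (adjusted p = 0.0374) and Flvcr2, of a family of heme and choline carriers, rose by 5.13 ± 0.95 (adjusted p = 0.0392).

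Among copper genes, Atox1, the chaperone that hands copper to ATP7A, rose by 1.88 ± 0.21 (adjusted p = 0.0146) from 2202 and 2165 to 8982 and 7146, with 5071 and 5267 in heterozygous epithelium. Slc31a2, a relative of Slc31a1, rose by 2.47 ± 0.24 (adjusted p = 0.0105). Sco1, which delivers copper to cytochrome oxidase, fell by 1.61 ± 0.20 (adjusted p = 0.0164). Other probe sets of Atox1, Lrp2, Scara5 and Steap2 differed by over 1 in size or, for 2 weaker ones of Atox1, in sign.

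Glrx5 and Cisd1, which handle iron-sulfur clusters in mitochondria, rose by 1.47 ± 0.19 (adjusted p = 0.0188) and 1.33 ± 0.20 (adjusted p = 0.0237), and Blvra, which acts after heme oxygenase, by 1.21 ± 0.19 (adjusted p = 0.0280). Atp2c2, a Golgi pump for calcium and manganese, fell by 1.88 ± 0.21 (adjusted p = 0.0139). In heterozygous against WT day 4 epithelium Glrx5 (-0.69 ± 0.19) and Car2 (-1.50 ± 0.25) were lower with the trend only (adjusted p = 0.0249 and 0.00302). Id1, a target of the iron-sensing BMP pathway and of BMP signals in general, was higher in that comparison, also with the trend only. Its change was 3.40 ± 0.56 (adjusted p = 0.190, and 0.00111 with the trend). Id1 had signals of 20636 and 15568 in heterozygous epithelium, against 1024 to 2826 on the 4 WT arrays. Heterozygous against WT day 1, Lrp2 (9.20), Slc46a1 (2.81), Slc31a2 (1.90), Cisd1 (1.52), Blvra (1.27), Scara5 (3.32), Id1 (3.45) and Atox1 (1.24) were higher in the default fit. Steap2 (-4.08), Car2 (-1.87), the copper enzyme Pam (-1.89) and S100a9 (-4.96), which was dim on day 4 arrays, were lower.

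Of the metal sensors, Mtf1 and Ireb2 passed in no comparison. Mtf1 had signals of 446 to 629 on all arrays, with a day change of -0.01 ± 0.23 (adjusted p = 0.989). Ireb2, an iron regulatory protein, had 1554 to 2026 and a day change of -0.13 ± 0.20 (adjusted p = 0.703). Aco1, the other iron regulatory protein, had 4090 and 4587 on day 1, 5767 and 9264 on WT day 4 and 8160 and 9085 in heterozygous epithelium, and rose by 0.75 ± 0.30 with the trend only (adjusted p = 0.190, and 0.0226 with the trend).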

How the data were processed

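Total RNA (100 ng) was labelled with biotin and hybridised to 6 arrays, per the labels. The authors deposited linear intensity values, 1 per probe set and array. The submitters' processing notes name RMA, Expression Console and Transcriptome Analysis Console without roles or versions. The values are not in RMA's log2 form: on each array their mean after trimming 2% at each end was 500. The sources used here do not say which summary this was.

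Of 45101 probe sets, 34945 had 1 symbol, 932 several, 9160 none listed and 64 were controls. Each of 18193 genes was read from the probe set with the greatest average of log2(signal + 1), without further normalization or filter. Limma 3.58.1 under R 4.3.3 fitted the 3 groups together, leaving 3 residual degrees of freedom, with two-sided tests. The code was also run on simulated data. Their spread was taken from the trend fit, so that run cannot judge either fit on these arrays. The number of arrays, 2 per group, limits the precision. Members and lists were chosen with earlier results of these data known. Members called in either fit of any comparison, or differing at least 2-fold between day 4 genotypes without overlap, were given with every array's value, and 13 defining genes by name. Of the other metal genes, the 12 called by default with the smallest p per comparison and 5 fixed ones were named.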

Additional observations from a re-analysis of the deposited data

How the results depend on the processing

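No paired analysis was possible because the groups share no sample numbers. Of the members called in either fit, or differing at least 2-fold without overlap (24 for the day, 5 for the genotype and 21 for heterozygous against WT day 1), none changed direction under the alternatives run. Other members were not followed this way, and single probe sets of some genes had opposite signs. By default, day 4 against day 1 in WT, higher members numbered 4 after centring and 0 with only the 4 arrays compared, and 0 to 6 when an array was left out. Lower members numbered 12 without the dimmest genes (12128 genes and 32 members kept), 15 with an intensity trend, 11 with a pseudocount of 32, 11 at an adjusted p under 0.10, and 0 to 6 when an array was left out. Between day 4 genotypes the counts were 0 throughout except for 4 higher with the trend. Heterozygous against WT day 1, lower members numbered 10 with the trend, and leaving out an array gave 0 to 6 in either direction. In the trend fit, leaving out an array gave 6 to 8 higher and 10 to 14 lower for the day, 2 to 7 higher and 0 lower for the genotype, and 6 to 8 higher and 5 to 14 lower for heterozygous against WT day 1. Centring gave 2 higher for the genotype and 6 lower for heterozygous against WT day 1. The blunt limit is 2 arrays per group and the unknown background of dim probe sets.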
